A study of Arabidopsis thaliana with 12 samples.

Results

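EEL, BZIP53 and bZIP44 are 3 basic leucine zipper (bZIP) transcription factors of Arabidopsis thaliana that act in seed maturation and germination. They were chosen by name, as listed bZIP factors whose probe set was paired with exactly 1 gene in the platform annotation. All 3 listed genes were found, among 13350 loci with a probe set of their own, and each had 1 such probe set: 267075_at for EEL (AT2G41070), 251237_at for BZIP53 (AT3G62420) and 261114_at for bZIP44 (AT1G75390). Their transcripts were measured in whole developing seeds on 1-colour Affymetrix arrays. The groups were seeds of plants homozygous for abi3-6, a mutation of ABI3, at 16 days after flowering (DAF), wild-type (Col-0) seeds at 16 DAF, abi3-6 seeds at 12 DAF and wild-type seeds at 12 DAF. Each group held 3 arrays, 12 in all, and the study's design text gives triplicate batches of plants without saying whether the groups shared them. Since the mother plants carried the mutation, the seed coat was mutant along with the embryo and endosperm. The labels name 1 mutant allele, and they give no treatment for any group. The comparison of genotypes addresses how a regulator of seed maturation bears on transcript levels in the seed.

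ABI3 is a B3-domain transcription factor that works with bZIP proteins on the promoters of storage protein and late embryogenesis abundant (LEA) genes, the proteins of desiccation tolerance. bZIP proteins bind DNA as dimers, so which partners are present decides which promoters they act on. EEL, named for enhanced expression of an Em gene in its mutant, is a group A bZIP that binds abscisic acid response elements of Em promoters, where it competes with ABI5. BZIP53, of group S, pairs with the group C factors bZIP10 and bZIP25 and activates seed albumin and cruciferin promoters. bZIP44, also of group S, acts in germination and has been placed upstream of a mannanase gene that loosens the tissue around the root tip. Messages of its subgroup of S factors carry an upstream reading frame through which sucrose represses translation, a step that arrays do not measure.

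Levels are deposited log2 values, in which 1 unit is a doubling, and differences between groups are differences of these values. ABI3 had no probe set paired with it alone, and with no level of the mutated gene itself the genotype labels could not be checked in that way. Of 22746 probe sets other than controls, 14894 reached the dim limit of 3.15 on at least 3 arrays and were tested, and all 3 genes lay above it on all 12 arrays. A difference is said to pass where its adjusted p in limma (Benjamini-Hochberg, over all probe sets tested) was under 0.05. Array medians at 16 DAF ran from 4.43 to 4.46 in abi3-6, against 4.05 to 4.10 in wild type. At 12 DAF they ran from 4.41 to 4.45 in abi3-6, against 4.27 to 4.34 in wild type. Centring the arrays on their medians therefore shifted the differences of the probe sets, in the median over them. Between genotypes the shift was -0.36 at 16 DAF and -0.12 at 12 DAF. For the age difference in wild type it was 0.23, and for the interaction -0.24. Centring moved the share of higher calls to 34.4% at 16 DAF, against 50.6% without it, and to 42% at 12 DAF, against 53.3%. That share went to 35.8% for the interaction, against 52.8%, and to 64.5% for the age difference in wild type, against 51.3%. One array, abi3-6 at 16 DAF replicate 3, stood apart. On it 5 of 8 measured markers of the maturing embryo were more than 1 log2 unit below both other arrays of its group. The differences of EEL and BZIP53 that use it are given below with and without it. Other values, among them the marker sums and correlations, include it unless stated. The scans of the 16 DAF arrays carry a shared prefix in their names that those of 12 DAF lack, so age and that prefix cannot be told apart. The sample titles of wild type at 12 DAF hold a further number before the replicate number, which those of the other groups lack. What it marks is not stated, and it cannot be told apart from that group. In whole seeds, fewer cells of a type and less RNA per cell cannot be told apart either.

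The 3 bZIP genes took 3 different courses. EEL was lower in abi3-6 than in wild type at both ages, by 3.02-fold at 16 DAF and 2.44-fold at 12 DAF, and it was also lower at 16 than at 12 DAF in both genotypes. BZIP53 was 1.80-fold lower in abi3-6 at 16 DAF, with a difference of -0.24 ± 0.18 (SE, log2) at 12 DAF that did not pass. bZIP44 was 8.05-fold higher in abi3-6 at 16 DAF: its transcript was 7.89-fold lower at 16 than at 12 DAF in wild type, while the same age difference in abi3-6 was -0.43 ± 0.18 and did not pass. At 16 DAF 3 of the 3 genes passed between genotypes, where 70.2% of all probe sets tested did, and at 12 DAF 2 of 3 did, against 50.8%. These shares are high, so that a passed test sets none of the 3 genes apart from the rest, and the sizes and the order of the levels carry the description.

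**Figure D1:**
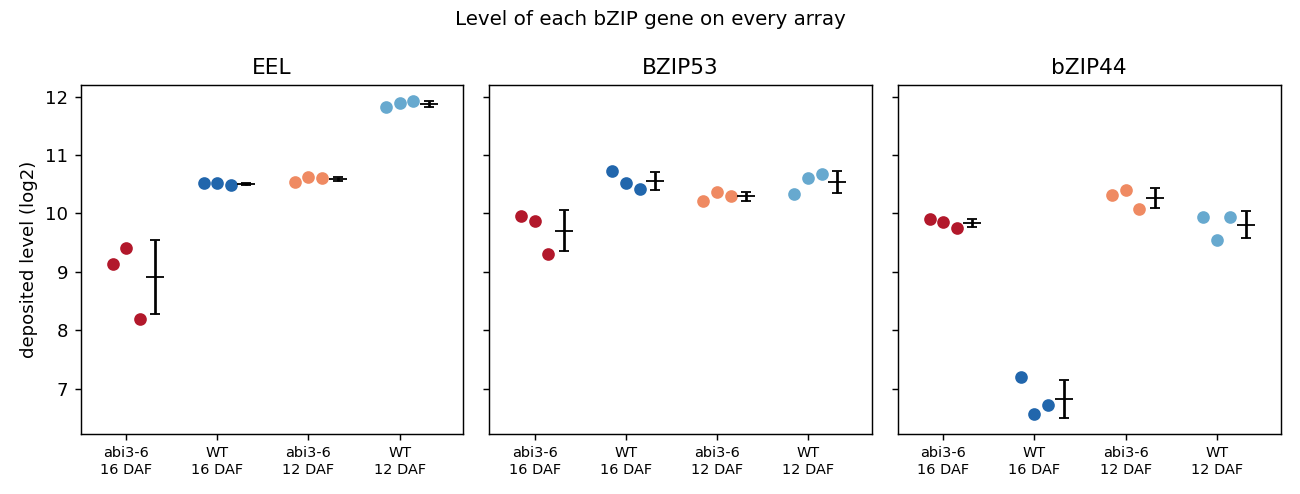
Deposited log2 level (vertical axis) of EEL, BZIP53 and bZIP44 on each of the 12 arrays, by group, where each point is 1 array and the bar beside it is the mean ± SD of 3 arrays. EEL steps down by genotype and by age, BZIP53 is lowest in abi3-6 at 16 DAF, and bZIP44 is low only in wild type at 16 DAF, with a mean of 6.83 there.

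EEL read 9.13, 9.41 and 8.20 in the 3 abi3-6 seed samples of 16 DAF, against 10.51, 10.52 and 10.49 in wild-type seeds of that age. All 3 mutant arrays lay below all 3 wild-type arrays, and the lowest of them was the array that stood apart. The difference was -1.60 ± 0.23 (SE, 95% interval -2.09 to -1.10, limma, adjusted p = 2.83e-05). Among all probe sets tested, 8.64% had a larger fall. Replicate 3 read 1.07 log2 units under the mean of the other 2 mutant arrays, a gap that 1.38% of probe sets exceeded downwards. Without it the EEL difference was -1.24 (limma, adjusted p = 3.78e-06).

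At 12 DAF EEL read 10.54, 10.62 and 10.60 in abi3-6, against 11.82, 11.89 and 11.92 in wild type. The groups again did not overlap, and their SDs were 0.04 and 0.05. The difference of -1.29 ± 0.23 (95% interval -1.78 to -0.79) passed, with an adjusted p = 0.000374 in limma, and 5.62% of probe sets fell further. The fit shares its estimate of spread over the groups, so the array that stood apart entered this SE. Without that array the difference was the same, with an SE of 0.12 (limma, adjusted p = 1.80e-06). The interaction of EEL, its difference at 16 DAF minus that at 12 DAF, was -0.31 ± 0.32 (SE, 95% interval -1.01 to 0.39) and did not pass (limma, adjusted p = 0.487). Without the array that stood apart it had the other sign, at 0.05 (limma, adjusted p = 0.857).

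Between ages the EEL difference was -1.68 ± 0.23 in abi3-6 and -1.37 ± 0.23 in wild type (SE, limma, adjusted p = 3.93e-05 and 0.000137), or 3.20-fold and 2.58-fold lower at 16 DAF. Without abi3-6 at 16 DAF replicate 3 the first was -1.32, and the second kept its value with an SE of 0.12. From low to high, EEL averaged 8.91 ± 0.64 in abi3-6 at 16 DAF, 10.51 ± 0.02 in wild type at 16 DAF, 10.59 ± 0.04 in abi3-6 at 12 DAF and, as its highest mean, 11.88 ± 0.05 in wild type at 12 DAF (SD, n = 3 each). The middle neighbours were only 0.08 apart, less than the SE of a difference. Over the 12 arrays EEL spanned 8.20 to 11.92.

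BZIP53 read 9.95, 9.87 and 9.30 in abi3-6 at 16 DAF, against 10.72, 10.52 and 10.43 in wild type at 16 DAF. The groups did not overlap, and replicate 3 was again the lowest mutant array. The difference was -0.85 ± 0.18 (SE, 95% interval -1.23 to -0.47, limma, adjusted p = 0.000657). That array lay 0.61 under the mean of its group's other 2, further down than for all but 5.91% of probe sets. Without it BZIP53 differed by -0.65 (limma, adjusted p = 0.00235).

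At 12 DAF BZIP53 read 10.22, 10.37 and 10.30 in abi3-6, against 10.33, 10.61 and 10.67 in wild type. Here the groups overlapped, since the lowest wild-type array lay below the highest mutant array. The difference was -0.24 ± 0.18 (95% interval -0.62 to 0.13) and did not pass (limma, adjusted p = 0.265). The interaction of genotype and age was -0.61 ± 0.25 (95% interval -1.14 to -0.07), with adjusted p = 0.0672 in limma. Since it did not pass, the genotype differences of BZIP53 at the 2 ages were not shown to differ, and without abi3-6 at 16 DAF replicate 3 the interaction was -0.40 (adjusted p = 0.147). Without replicate 1 of that group it passed (-0.73, adjusted p = 0.0384), as it did after centring (-0.84, adjusted p = 0.0167).

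With age BZIP53 differed by -0.59 ± 0.18 in abi3-6 (SE, limma, adjusted p = 0.0126, 1.5-fold lower at 16 DAF), without overlap of the ages. That call rested on the array that stood apart, for without it the value was -0.38 (adjusted p = 0.0568). In wild type the age difference was 0.02 ± 0.18 (95% interval -0.36 to 0.39, adjusted p = 0.936). From low to high, BZIP53 averaged 9.71 ± 0.36 in abi3-6 at 16 DAF, 10.29 ± 0.07 in abi3-6 at 12 DAF, 10.54 ± 0.18 in wild type at 12 DAF and, highest, 10.56 ± 0.15 in wild type at 16 DAF (SD, n = 3 each). The last 3 of these followed each other with overlapping arrays, and abi3-6 at 16 DAF lay apart from them. The whole span of BZIP53, 9.30 to 10.72, was the narrowest of the 3 genes.

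bZIP44 read 9.90, 9.85 and 9.75 in abi3-6 at 16 DAF, against 7.19, 6.56 and 6.72 in wild type at 16 DAF. The lowest mutant array lay far above the highest wild-type array. The difference was 3.01 ± 0.18 (SE, 95% interval 2.63 to 3.39, limma, adjusted p = 3.36e-09), and 4.62% of probe sets rose further. The array that stood apart for the other genes lay 0.12 under the mean of its group's other 2 here, with 34.4% of probe sets lower still. Without it the difference was 3.05 (adjusted p = 3.50e-08).

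At 12 DAF bZIP44 read 10.32, 10.40 and 10.07 in abi3-6, against 9.93, 9.54 and 9.95 in wild type. The groups did not overlap, but they lay close together. The difference was 0.46 ± 0.18 (SE, 95% interval 0.07 to 0.84, 1.37-fold), which passed narrowly (limma, adjusted p = 0.0452) and was lost in 11 of 22 alternatives, among them centring of the arrays (0.33, adjusted p = 0.127) and quantile normalization (0.31, adjusted p = 0.139). At 12 DAF it was lost without wild-type replicate 2 (0.32) and without abi3-6 replicate 1 (0.43) or 2 (0.39). It was also lost, with the value at 0.46, without wild type at 16 DAF replicate 3 or abi3-6 at 16 DAF replicate 1 or 2. The interaction was 2.55 ± 0.25 (95% interval 2.01 to 3.09, adjusted p = 4.34e-06): 1 of the 3 genes passed it, against 40.1% of probe sets (21.2% positive, 18.9% negative), and 2.13% had a larger positive one.

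The interaction of bZIP44 came with an age difference in wild type of -2.98 ± 0.18 (SE, 95% interval -3.36 to -2.60, limma, adjusted p = 6.26e-09), a fall that 3.14% of probe sets exceeded. In abi3-6 it was -0.43 ± 0.18 (95% interval -0.81 to -0.05, adjusted p = 0.0588). The 2 age groups of abi3-6 did not overlap, although the test did not pass. It passed without abi3-6 at 12 DAF replicate 3 (-0.53) and, with the value at -0.43, without wild type at 12 DAF replicate 2 or wild type at 16 DAF replicate 1. From high to low, bZIP44 averaged 10.26 ± 0.17 in abi3-6 at 12 DAF, 9.84 ± 0.08 in abi3-6 at 16 DAF, 9.81 ± 0.23 in wild type at 12 DAF and, lowest, 6.83 ± 0.33 in wild type at 16 DAF (SD, n = 3 each). The second and the third of these overlapped and were 0.03 apart. Wild type at 16 DAF was the group that stood off, and over all arrays bZIP44 ran from 6.56 to 10.40.

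Between ages, 2 of the 3 genes passed in abi3-6 (EEL and BZIP53), where 50.5% of all probe sets did (27% higher, 23.5% lower), and 2 of 3 in wild type (EEL and bZIP44), where 62.3% did (32% higher, 30.3% lower). All of these member calls were lower at 16 DAF. Arrays of the 2 ages did not overlap for 3 of 3 genes in abi3-6, against 63.4% of probe sets, and for 2 of 3 in wild type, against 66.3%. Arrays of the 2 genotypes did not overlap for 3 of 3 genes at 16 DAF, against 74.9% of probe sets, and for 2 of 3 at 12 DAF, against 61.9%. After centring the arrays the differences at 16 DAF were -1.96 for EEL, -1.21 for BZIP53 and 2.65 for bZIP44, in the same directions as before. The genotype and age comparisons share groups with each other, and their values are therefore set side by side without a correlation.

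**Figure D2:**
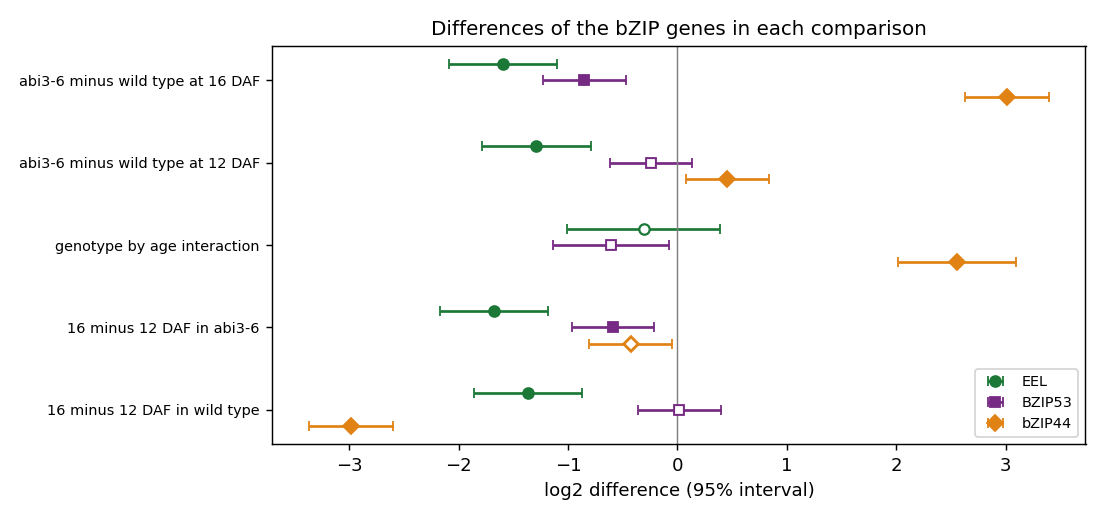
Log2 difference (horizontal axis, with its 95% interval) of EEL, BZIP53 and bZIP44 in each of 5 comparisons, where a white centre marks a difference that did not pass. At 16 DAF the genotype difference is -1.60 for EEL, -0.85 for BZIP53 and 3.01 for bZIP44, and the age difference in wild type is -1.37, 0.02 and -2.98.

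Other measures moved with genotype beside these values. Of the 10 listed markers of the maturing embryo (oleosins and cupin storage proteins) 8 were measured. Of these, 8 fell at 16 DAF, where 34.7% of all probe sets did, and 7 at 12 DAF, where 23.7% did. Their summed linear level at 16 DAF was 1794 to 4574 in abi3-6, against 59073 to 62640 in wild type. At 12 DAF it was 34363 to 37623 in abi3-6, against 88308 to 90572 in wild type. Storage protein genes are among those ABI3 works on, so the levels of these markers do not by themselves give the amount of embryo. Of 5 seed coat markers 3 were measured, whose sum at 16 DAF was 2277 to 2802 in abi3-6, against 802 to 1000 in wild type. Their sum at 12 DAF was 1248 to 1671 in abi3-6, against 944 to 1112 in wild type. These sums were mostly ARA12, which averaged 11.28 in abi3-6 at 16 DAF, against 6.46 for DFR and 2.57 for BAN. They do not show a joint course of the 3 markers. ARA12, a subtilisin-like protease of the seed coat, rose at both ages (1.45 at 16 DAF and 0.52 at 12 DAF, the second call lost after quantile normalization with 0.36 and without abi3-6 at 12 DAF replicate 1 with 0.40), DFR of flavonoid synthesis rose at 16 DAF (2.73) and fell at 12 DAF (-1.36), and the flavonoid gene BAN, above the dim limit on no array of 16 DAF, differed by 0.16 and -0.10 without passing. The 1 measured silique wall marker of 5, ALC, a gene of fruit opening, rose at 16 DAF (1.34) and fell at 12 DAF (-1.14), with a linear level of 12.3 to 26.9 in abi3-6, against 6.48 to 9.82 in wild type, at 16 DAF, and of 7.56 to 9.07 in abi3-6, against 12.1 to 24.8 in wild type, at 12 DAF. Of 5 endosperm markers 1, AGL62, was measured, and it lay below the dim limit on all 12 arrays. The actin control probe sets, which compare the 3′ with the 5′ end of a message and so reflect RNA quality, differed by 0.30 to 0.46 log2 units over the 6 abi3-6 arrays, against -0.47 to -0.17 over the 6 wild-type arrays. The GAPDH controls overlapped between the genotypes, at -0.10 to 0.32 in abi3-6 and -0.55 to 0.30 in wild type. The part of these measures in the bZIP results was not tested.

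The bZIP family as a whole gave the 3 genes their nearest setting. Of 74 listed family loci 29 had their own probe set, of which 16 were tested and 13 set aside as dim. At 16 DAF 4 of the 16 were higher in abi3-6, 7 lower and 5 did not pass, with a median difference of -0.23 against -0.03 over all probe sets. That is 68.8% called, beside 70.2% of all probe sets, of which 35.5% were higher and 34.7% lower. At 12 DAF 1 was higher, bZIP44 itself, 4 were lower and 11 did not pass (median -0.24 against -0.00), where 27.1% of all probe sets were higher and 23.7% lower. Without the 3 genes, 3 of 13 were higher and 5 lower at 16 DAF, and 0 higher and 3 lower at 12 DAF. Between ages 3 of the 16 were higher and 5 lower at 16 DAF in abi3-6, where 50.5% of all probe sets passed, and 3 higher and 8 lower in wild type, where 62.3% did. A positive interaction was found for 5 and a negative one for 1, where 40.1% of all probe sets passed. Counted among the higher calls at 16 DAF and the positive interactions is bZIP61. It passed the filter through its arrays of abi3-6 at 16 DAF alone, so these calls followed in part from the filter. A stricter filter on dim probe sets lowered the calls at 12 DAF to 3, against 5, and without abi3-6 at 16 DAF replicate 3 those between ages in abi3-6 numbered 5, against 8.

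**Figure D3:**
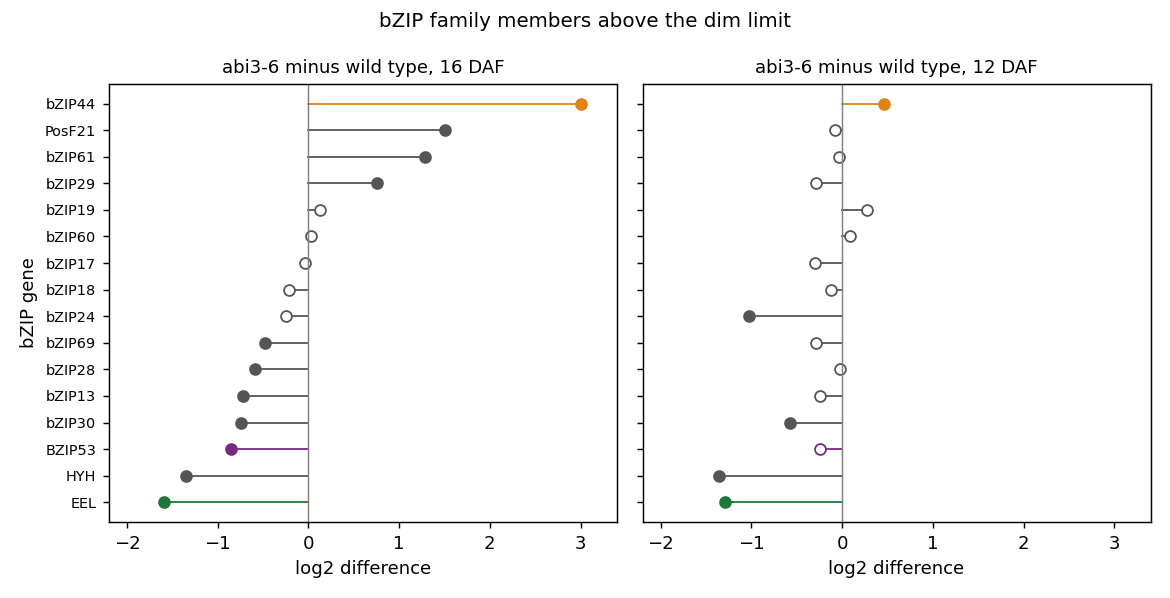
Log2 difference between abi3-6 and wild type (horizontal axis) of the 16 tested bZIP genes, at 16 DAF in the left panel and 12 DAF in the right, where filled points passed and open points did not. The genes run from EEL at -1.60 up to bZIP44 at 3.01 in the order of 16 DAF, and 11 of the 16 are open at 12 DAF. bZIP61, filled at 16 DAF, was above the dim limit only in abi3-6 at that age.

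In group A, the group of EEL, which holds the abscisic acid response factors, 4 of 13 loci had a probe set of their own, and 2 were dim: FD, a partner of the flowering signal, and bZIP15. The other tested member, bZIP13, read 7.13, 7.28 and 7.08 in abi3-6 at 16 DAF, against 8.09, 7.56 and 7.99 in wild type. It fell by 0.72 ± 0.22 (SE, limma, adjusted p = 0.00925), without overlap. At 12 DAF it differed by -0.24, with overlapping groups and no pass. Its age differences, -0.07 in abi3-6 and 0.41 in wild type, did not pass, although that in wild type passed as higher after centring (0.64) and without wild type at 12 DAF replicate 3 (0.66). Of the alternatives run, the fit without that array was the only one in which the interaction of bZIP13 passed (-0.73).

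In group S 6 of 17 loci had a probe set of their own, and bZIP42, bZIP43, bZIP48 and bZIP58 were dim, which left BZIP53 and bZIP44 as the tested pair. Between genotypes they moved in opposite directions at 16 DAF. Of the 4 loci of group C, which holds the partners of BZIP53, 0 had a probe set of their own.

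Among the other groups 7 of 12 tested genes passed at 16 DAF, where 70.2% of all probe sets did. HYH, a homolog of the light regulator HY5, fell at both ages, with differences of -1.35 ± 0.35 at 16 DAF and -1.36 ± 0.35 at 12 DAF (SE, limma, adjusted p = 0.00341 and 0.0052). Like EEL it was also lower at 16 DAF in both genotypes, with differences of -1.21 in abi3-6 and -1.22 in wild type, the first of which lost its call without abi3-6 at 16 DAF replicate 3 (-0.93) or at 12 DAF replicate 1 (-0.99). HYH was near the dim limit, at 3.21, 3.33 and 2.43 in abi3-6 at 16 DAF, against 4.79, 3.61 and 4.63 in wild type. bZIP30 fell at both ages, with differences of -0.74 ± 0.15 at 16 DAF and -0.58 ± 0.15 at 12 DAF. bZIP28, a membrane-held factor of endoplasmic reticulum stress, fell by 0.59 ± 0.14 at 16 DAF (adjusted p = 0.00246), and neither it nor bZIP69 passed at 12 DAF. bZIP69 differed by -0.48 ± 0.18 at 16 DAF (adjusted p = 0.0248), a call lost without wild type at 16 DAF replicate 3 (-0.42) or abi3-6 at 16 DAF replicate 2 (-0.49) or 3 (-0.42). The other stress factors, bZIP17 and bZIP60, and bZIP19, of the zinc deficiency response, passed in neither genotype comparison, with differences from -0.30 to 0.27. After centring bZIP17 passed as lower, at -0.40 and -0.42, and without wild type at 12 DAF replicate 3 bZIP17 (-0.44) and bZIP19 (0.50) passed at 12 DAF. bZIP18 differed by -0.22 at 16 DAF and -0.12 at 12 DAF without passing, and at 16 DAF it passed as lower after centring (-0.58) and quantile normalization (-0.44).

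PosF21 shared with bZIP44 a low level in wild type at 16 DAF. At 16 DAF it read 6.20, 6.14 and 6.47 in abi3-6, against 4.39, 4.66 and 5.25 in wild type. At 12 DAF it read 6.47, 6.30 and 6.05 in abi3-6, against 6.16, 6.70 and 6.20 in wild type. No array of the other groups came down to those 3 wild-type arrays. The difference was 1.5 ± 0.22 at 16 DAF (SE, limma, adjusted p = 3.23e-05) and -0.08 at 12 DAF, and the interaction of 1.58 passed (adjusted p = 0.00115). Between ages PosF21 differed by -1.59 in wild type, which passed, and by -0.01 in abi3-6.

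bZIP29 went the same way with a wider spread, at 5.92, 6.03 and 6.25 in abi3-6 at 16 DAF, against 4.59, 5.71 and 5.63 in wild type. It rose by 0.75 ± 0.25 at 16 DAF (SE, adjusted p = 0.0166), and its age difference in wild type was -1.68. The call at 16 DAF was lost after centring (0.39), after quantile normalization (0.53) and with only the groups compared (0.75). It was also lost without wild type at 16 DAF replicate 1 (0.39), the lowest array of bZIP29, and without abi3-6 at 16 DAF replicate 3 (0.66). bZIP61 was above the dim limit only in abi3-6 at 16 DAF, where it was at least 1.51-fold higher than in wild type, whose arrays set only a bound. bZIP24 was dim in both genotypes at 16 DAF and fell by 1.03 ± 0.13 at 12 DAF (limma, adjusted p = 1.42e-05).

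Few partners and targets of the 3 genes had a probe set of their own. One was found for 2 of 14 listed seed maturation regulators other than the 3 genes, 1 of 16 genes named in work on these bZIP factors, and 0 of 19 abscisic acid signalling genes, 0 of 3 SnRK1 kinase genes and 0 of 7 mannanases. AGL67, a MADS-box gene of seed maturation, fell by 2.14 ± 0.16 at 16 DAF and fell by 2.11 ± 0.16 at 12 DAF (SE, limma, adjusted p = 4.91e-08 and 1.47e-07). BBM, an AP2-type regulator of embryo development, differed by -1.04 ± 0.19 at 16 DAF and -1.40 ± 0.19 at 12 DAF (adjusted p = 0.000203 and 3.24e-05). It was near the dim limit in abi3-6 at 16 DAF, at 3.00, 3.37 and 3.32, against 3.81, 4.61 and 4.40 in wild type. The sizes of its differences that use abi3-6 at 16 DAF are therefore uncertain. Like EEL, BBM was lower at 16 than at 12 DAF in both genotypes, with differences of -1.35 in abi3-6 and -1.70 in wild type, while the age differences of AGL67, 0.20 in abi3-6 and 0.22 in wild type, did not pass. After centring that of AGL67 in wild type was 0.45 and passed.

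The 1 measured target was AT3G15670 (LEA76), a LEA gene that BZIP53 is known to activate. At 16 DAF it read 7.56, 6.52 and 6.76 in abi3-6, against 15.21, 15.19 and 15.24 in wild type. At 12 DAF it read 9.30, 8.70 and 8.41 in abi3-6, against 14.68, 14.67 and 14.63 in wild type. The genotypes were far apart at both ages. LEA76 fell by 8.27 ± 0.25 at 16 DAF and fell by 5.85 ± 0.25 at 12 DAF (SE, limma, adjusted p = 3.77e-12 and 3.40e-10), and its interaction of -2.41 ± 0.35 passed (adjusted p = 0.00012). BZIP53 differed by -0.85 at 16 DAF, which passed, and by -0.24 at 12 DAF (95% interval -0.62 to 0.13), which did not. Its part in the LEA76 values was not tested. Between ages LEA76 fell by 1.86 in abi3-6, and in wild type it differed by 0.55 without passing (adjusted p = 0.069). That difference passed with a replicate block (0.55, adjusted p = 0.0371), after centring (0.78, adjusted p = 0.0124), with only the groups compared (adjusted p = 0.00406), and without abi3-6 replicate 1 of 12 DAF or of 16 DAF.

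To describe which transcripts ran most like each gene, Pearson's r over the 12 arrays was taken with every tested probe set of 1 gene whose SD reached 0.5, about 4650 in each case. The 12 points are 4 groups of the same arrays, so that r mostly follows the 4 group means, and it is given as a description. Transcripts chosen this way share the course of their gene through the choice, so their directions are no separate result. Of the transcripts compared 262 (5.63%) had an r over 0.9 with EEL, 45 (0.968%) with BZIP53 and 396 (8.52%) with bZIP44.

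The transcripts nearest to EEL were AT5G24316 (r = 0.992), AT5G64190 (0.991), AT5G09480 (0.988), AT5G66090 (0.986) and AT1G63240 (0.986). All 5 fell in abi3-6 at both ages. At 16 DAF AT5G24316 averaged 6.99 in abi3-6 and 9.72 in wild type. At 12 DAF it averaged 9.71 in abi3-6 and 11.86 in wild type, so its middle groups lay close together, as those of EEL did. The differences at 16 DAF ran from -2.74 in AT5G24316 to -0.87 in AT1G63240, on either side of the -1.60 of EEL.

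Those nearest to BZIP53 were AT1G65090 (r = 0.951), AT2G34315 (0.943), AT1G70985 (0.943), the cruciferin-like AT1G03890 (0.943), also among the embryo markers above, and TAAC (0.940), a carrier of ATP and ADP in thylakoids. Their differences at 16 DAF, -2.04, -2.72, -5.58, -5.08 and -2.09 in that order, were all larger falls than the -0.85 of BZIP53. BZIP53 itself did not reach the SD of 0.5 asked of the transcripts compared. Larger falls than its own thus followed in part from that cut. At 12 DAF the differences of these transcripts ran from -2.44 in AT1G70985 to -0.40 in AT1G65090, of which the last did not pass. The -0.40 of AT1G65090 passed without the array that stood apart (adjusted p = 0.0168) and with only the groups compared (adjusted p = 0.0222). The call of TAAC at 12 DAF (-0.66) was lost without wild type at 12 DAF replicate 3 or any 1 of the 3 abi3-6 arrays of that age (-0.67 to -0.57). On AT1G03890 the array that stood apart read 7.17, against 9.64 and 9.27 on the other 2 of its group. Without it the differences at 16 DAF were -4.32 for AT1G03890 and -4.77 for AT1G70985.

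Those nearest to bZIP44 were AT1G10350 (r = 0.993), AT2G45990 (0.989), AT5G48500 (0.988), AT1G32190 (0.988) and AT2G42390 (0.987). Each was low in wild type at 16 DAF. AT5G48500 averaged 8.34 in abi3-6, against 5.36 in wild type, at 16 DAF. At 12 DAF its mean was 8.90 in abi3-6, against 8.46 in wild type. It rose by 2.98 at 16 DAF, close to the 3.01 of bZIP44. AT1G32190 lay below the dim limit in wild type at 16 DAF and was at least 4.13-fold higher in abi3-6, and the other 3 rose by 1.93 to 2.24.

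**Figure D4:**
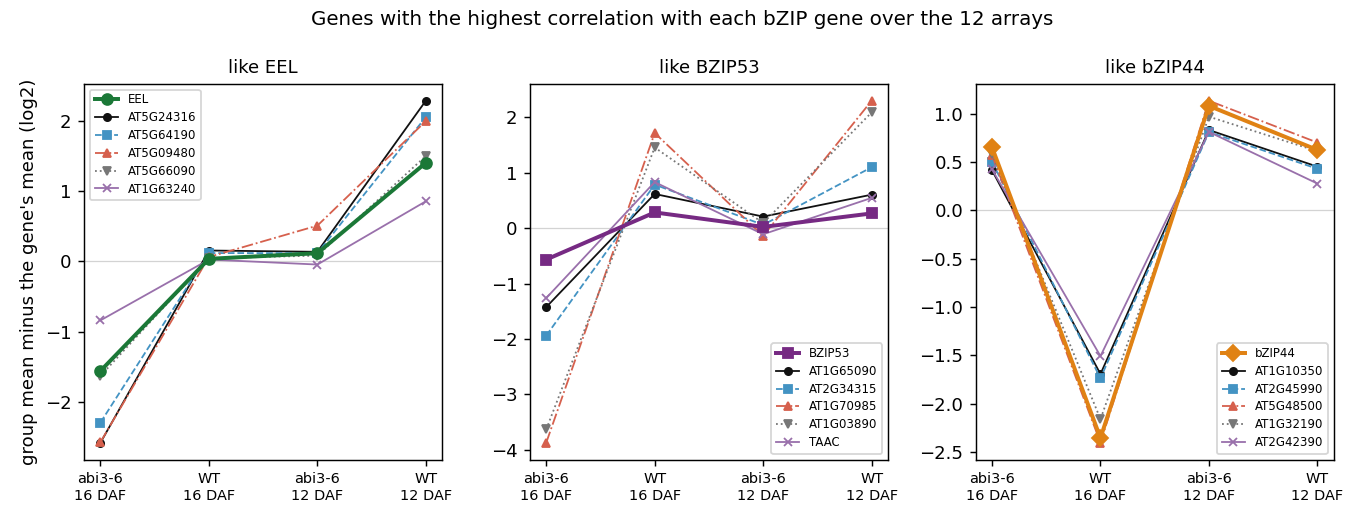
Group mean minus the mean of the 4 groups (vertical axis, log2) for EEL, BZIP53 and bZIP44 (thick lines) and for the 5 transcripts of highest r with each (thin lines) in the 4 groups, where lines join groups for reading only. The EEL set, apart from AT5G09480, has middle groups close together, the BZIP53 set is lowest in abi3-6 at 16 DAF, and the bZIP44 set is lowest in wild type at 16 DAF.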

How the data were processed

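Total RNA of 12 seed samples was hybridised to 1 array each. Deposited values ran from 1.49 to 15.89 and were taken to be log2 expression, a scale that is inferred and that no label gives. Per the submitters' processing notes the tools were GCOS 1.3 and GCRMA 2.0.0, without a stated role or order. Whether arrays were brought to a common level before deposit is not given in the sources used here. Names came from the platform annotation (13513 with 1 gene, 503 with several, 8730 with none), and 13508 of those with 1 gene matched TAIR10.1.

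The dim limit of 3.15 was the 40th percentile of all values, 14894 probe sets at or above it on at least 3 arrays were kept, and 7852 were left out as dim. Group means were fitted over the 12 arrays together in limma 3.58.1 (lmFit, eBayes) in R 4.3.3, with 8 residual and 5.39 prior degrees of freedom. Tests were two-sided with Benjamini-Hochberg adjustment over the probe sets kept. A group with no array above the limit gave a bound only. Named were the 3 genes, the listed bZIP and partner genes, and the 5 transcripts of highest r with each. The genes and lists were chosen with earlier results of these data known. The fit was tested on simulated data. Replicate numbers recur in all groups, and no source used here says that a number marks a shared batch, so arrays were not taken as paired. Alternatives were scaling, filter, prior, array weights, a replicate block and leaving out each array. Tables and figures used Python 3.11.15, pandas 2.3.3, numpy 2.4.6, scipy 1.17.1 and matplotlib 3.10.9. The 12 arrays limit the precision, and no raw intensities were used.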

Additional observations from a re-analysis of the deposited data

Results flagged for a closer look

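These results were picked out because the genotype difference at 16 DAF minus that at 12 DAF passed its own test (the interaction in limma, log2, adjusted over all probe sets tested, of which 40.1% passed). Of the 16 bZIP genes tested, bZIP44 had the largest, 2.55 (adjusted p = 4.34e-06). Among the other bZIP genes the interaction was 1.58 for PosF21, 1.31 for bZIP61, 1.04 for bZIP29, 0.78 for bZIP24 and -0.56 for bZIP28. Those of bZIP29 and bZIP28 lost their call in 10 alternatives each. bZIP61 was above the dim limit in abi3-6 at 16 DAF only and bZIP24 was dim at 16 DAF, so their fitted values are not measured sizes. LEA76 had an interaction of -2.41. Of the seed coat and silique wall markers, DFR had 4.09, ALC 2.48 and ARA12 0.94, so that DFR and ALC differed in sign between the ages.

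Among transcripts that ran like EEL, AT5G09480 had an interaction of -1.15 (adjusted p = 0.0498), which was -0.65 without abi3-6 at 16 DAF replicate 3 and lost its call in 12 alternatives. All 5 that ran like BZIP53 had a negative one, -1.64 for AT1G65090, -1.68 for AT2G34315, -3.15 for AT1G70985, -3.09 for AT1G03890 and -1.44 for TAAC, whereas BZIP53 itself, at -0.61, did not pass. Without abi3-6 at 16 DAF replicate 3 AT1G70985 and AT1G03890 were at -2.33 and -2.32. BZIP53 lay under the SD of 0.5 asked of these 5 transcripts, so their larger sizes followed in part from that cut. All 5 that ran like bZIP44 had a positive one, 1.73 for AT1G10350, 1.86 for AT2G45990, 2.54 for AT5G48500, 2.39 for AT1G32190 and 1.40 for AT2G42390. AT1G32190 lay below the dim limit in wild type at 16 DAF, so its fitted value is not a measured size. These 15 transcripts were chosen for their likeness over the same arrays, so their interactions are no independent evidence of a shared course.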

How the results depend on the processing

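Of 15 results for the 3 genes, 11 kept their call under every alternative run, and 0 that passed turned direction. The bZIP44 difference at 12 DAF lost its call after centring (0.33), quantile normalization (0.31), with no filter (0.46, adjusted p = 0.0629), with array weights (0.37) and with a replicate block within age (0.46, adjusted p = 0.0571), and in 6 of 12 fits that left out 1 array (0.32 to 0.55 over all 12). The BZIP53 interaction passed after centring (-0.84), with a trended prior (-0.61, adjusted p = 0.0446), with the block within age (-0.61, adjusted p = 0.0447) and without abi3-6 at 16 DAF replicate 1 (leave-one-out range -0.73 to -0.40). The bZIP44 age difference in abi3-6 passed with a trended prior (-0.43, adjusted p = 0.0405) and with only the groups compared (-0.43, adjusted p = 0.023), and in 3 fits that left out 1 array (-0.53 to -0.36 over all 12), and that of BZIP53 ran from -0.71 to -0.38. Calls in the bZIP family numbered 20 with no filter at 16 DAF (11 in the fit reported), 3 with a stricter filter at 12 DAF (5) and 5 to 11 between ages in abi3-6 (8, with 5 without abi3-6 at 16 DAF replicate 3). With no filter 9078 probe sets were lower at 16 DAF, against 5161. The replicate block over all arrays gave 10464 calls at 16 DAF, against 10450, and 8 of 12 arrays correlated best with an array of their own number. Deviations of same-numbered arrays correlated weakly (median 0.04, -0.02 to 0.16 over 18 pairs, 3 over 0.1), against a median of -0.0335 (-0.13 to 0.08) over 36 differently numbered pairs, 0 of them over 0.1. Deviations were taken from the group means, so these medians depend on each other. The 6 same-numbered pairs of the same age and different genotype ran from 0.011 to 0.144, with a median of 0.0765. For 175 results of the other named genes, 138 kept their call in every alternative run, 37 did not and 0 reversed. The interaction with only the groups compared, the block within age for age differences, and other probe sets of the 3 genes, each of which has 1, were not run. The causes were not tested. Dim probe sets, 3 arrays a group and the unstated scaling limit the values.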

Other observations

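The tested genes within 2 places of each bZIP gene in the TAIR10.1 gene order had values of their own. Beside EEL, which fell at both ages, AT2G41060 differed by 0.41 at 16 DAF without passing (limma, adjusted p = 0.083) and rose by 0.55 at 12 DAF (adjusted p = 0.0325), and AT2G41080 rose by 0.61 at 16 DAF (adjusted p = 0.0427). Near BZIP53, AT3G62400 rose by 1.04 at 16 DAF and 0.61 at 12 DAF. Around bZIP44, which rose, AT1G75370 fell by 0.81 at 16 DAF and 0.77 at 12 DAF, and AT1G75400 fell by 0.55 at 16 DAF (adjusted p = 0.0131).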
